A study of Mus musculus with 19 samples.

Results

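Of the 36682 genes in the deposited table, 9 are described here, taken by name: the monocyte receptors Ccr2 and Cx3cr1, the chemokines Ccl2, Ccl7, Ccl8, Ccl12 and Cx3cl1, and the monocyte-associated genes Ly6c2 and Plac8. All 9 passed the filter on low counts and were among the 22778 genes tested. Poly(A) RNA was sequenced in bulk from dorsal root ganglia, where the cell bodies of sensory neurons sit next to the spinal cord. The L3, L4 and L5 ganglia were pooled, in operated mice those ipsilateral to the knee surgery. Every animal, controls included, was a male homozygous for the MaFIA (macrophage Fas-induced apoptosis) transgene, in which the Csf1r promoter drives a Fas protein that the dimerizer AP20187 switches on. The 4 groups were naive with vehicle (n = 5), naive with AP20187 (n = 4), DMM with vehicle (n = 5) and DMM with AP20187 (n = 5). DMM (destabilization of the medial meniscus) is an operation that leads to knee osteoarthritis. Injections were given intraperitoneally once a day for 5 days, to DMM mice 8 weeks after the operation and to naive mice of matched age. The promoter limits the model: it is active in monocytes, macrophages and other myeloid cells, so AP20187 acts neither in the ganglion alone nor in a single cell type.

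CCR2 is the receptor through which classical monocytes, the Ly6C-high inflammatory kind, leave the bone marrow and enter injured tissue. In the mouse its ligands include CCL2, CCL7 and CCL12, and CCL8, although grouped with them, has also been assigned to the receptor CCR8. CX3CR1, the receptor of the membrane-bound chemokine CX3CL1 (fractalkine), marks patrolling monocytes and many tissue macrophages, and CX3CL1 itself is made by neurons and endothelium. Ly6c2 encodes a surface protein of classical monocytes that other myeloid cells also carry, and Plac8 is a small cysteine-rich protein abundant in immature myeloid cells and monocytes.

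In ganglia of AP20187-treated mice the 9 genes did not move as a unit. Ccr2 fell in both naive and DMM mice, Ly6c2 and Plac8 rose in both, and Ccl8 had the largest fold changes of the 9, 23.8-fold higher in naive and 17.1-fold higher in DMM mice. Ccl2, Ccl7 and Ccl12 rose in naive mice, and in DMM mice their differences did not pass the test. Cx3cr1 and Cx3cl1 passed in neither. A difference between the naive and the DMM effect was called for none of the 9. The call of Ly6c2 in DMM mice and that of Ccr2 in naive mice lay close to the threshold: the first was lost under 4 alternatives and the second under 1, and both when certain single libraries were left out. The naive calls of Ly6c2, Ccl7 and Ccl12 were also lost when certain single libraries were left out. The calls of Ccl12 in naive and of Plac8 in DMM mice were each lost under 1 alternative. Since the genes named for Ccr2 monocytes moved in opposite directions, they are described one by one and not as the level of a single cell type. In bulk tissue, fewer cells of a type and less RNA per cell cannot be told apart.

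The 4 CC ligands lie together on chromosome 11 in the GRCm39 positions of the files, all on the plus strand: Ccl2 (ENSMUSG00000035385) from 81926397 to 81928279, Ccl7 (ENSMUSG00000035373) from 81936538 to 81938351, Ccl12 (ENSMUSG00000035352) from 81992671 to 81994226 and Ccl8 (ENSMUSG00000009185) from 82006011 to 82007625. Ccr2 (ENSMUSG00000049103) lies on chromosome 9 from 123901987 to 123913594, and Cx3cr1 (ENSMUSG00000052336) is on the same chromosome from 119877749 to 119898945. Ly6c2 (ENSMUSG00000022584) is on chromosome 15 from 74980007 to 74983819, Plac8 (ENSMUSG00000029322) on chromosome 5 from 100701591 to 100720111 and Cx3cl1 (ENSMUSG00000031778) on chromosome 8 from 95498637 to 95509055. All 9 are annotated as protein-coding. Sequences upstream of the annotated starts were taken from RefSeq on build GRCm38.p6, which held a start for 7 of the 9 genes.

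The sequences shown are the 250 bases before the start of the most raised ligand, of its neighbour Ccl12, of Ly6c2 and its paralog Ly6c1, and of Ccr2, which moved the other way. Each is read 5′ to 3′ on the gene's strand and is given in lower case, with capitals marking a TATA box (TATAAA) in Ccl8 and Ccl12 and the PU.1-type ETS motif (GAGGAAGT) in the Ly6 genes. Ly6c2 and Ly6c1 each have a further annotated start, not shown. The windows are chr11:82114935-82115184 (plus strand) for Ccl8, chr11:82101595-82101844 (plus) for Ccl12, chr15:75111938-75112187 (minus) for Ly6c2, chr15:75048664-75048913 (minus) for Ly6c1 and chr9:124101933-124102182 (plus) for Ccr2.
Ccl8: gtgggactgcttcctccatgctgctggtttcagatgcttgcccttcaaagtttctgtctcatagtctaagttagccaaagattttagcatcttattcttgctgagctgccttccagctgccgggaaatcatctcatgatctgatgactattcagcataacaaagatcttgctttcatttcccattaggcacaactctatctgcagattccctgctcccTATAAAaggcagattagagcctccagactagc
Ccl12: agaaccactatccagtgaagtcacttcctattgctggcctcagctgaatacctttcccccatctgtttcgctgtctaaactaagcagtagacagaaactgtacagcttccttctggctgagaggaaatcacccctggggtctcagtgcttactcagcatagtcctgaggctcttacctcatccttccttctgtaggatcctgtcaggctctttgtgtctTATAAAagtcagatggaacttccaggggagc
Ly6c2: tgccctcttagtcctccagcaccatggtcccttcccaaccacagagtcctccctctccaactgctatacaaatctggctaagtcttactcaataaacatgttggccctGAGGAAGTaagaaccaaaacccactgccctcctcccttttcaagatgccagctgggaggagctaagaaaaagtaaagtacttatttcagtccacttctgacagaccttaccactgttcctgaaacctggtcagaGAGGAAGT
Ly6c1: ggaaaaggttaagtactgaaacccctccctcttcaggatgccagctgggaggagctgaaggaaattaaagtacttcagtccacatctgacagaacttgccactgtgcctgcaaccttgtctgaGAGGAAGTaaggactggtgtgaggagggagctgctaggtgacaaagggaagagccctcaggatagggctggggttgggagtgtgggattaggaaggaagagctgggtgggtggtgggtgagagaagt
Ccr2: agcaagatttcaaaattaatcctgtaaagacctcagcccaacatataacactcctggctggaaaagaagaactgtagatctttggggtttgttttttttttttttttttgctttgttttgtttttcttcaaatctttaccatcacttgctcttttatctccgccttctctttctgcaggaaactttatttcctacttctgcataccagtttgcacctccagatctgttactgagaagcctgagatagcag

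The Ccl8 and Ccl12 windows aligned over 217 bases, 74.2% of them identical, and each held TATAAA about the same distance before its start, at positions -32 to -27 in Ccl8 and -31 to -26 in Ccl12. TATAAA was found in 12.4% of 32851 mouse promoter windows of the same length. The Ly6c2 and Ly6c1 windows matched at 73.3% of 191 aligned bases. GAGGAAGT stood at positions -142 to -135 and -8 to -1 in Ly6c2 and at -127 to -120 in Ly6c1, and 2.44% of all windows held it. At the other annotated starts, whose windows matched at 81.4% of 210 aligned bases, Ly6c2 held it at -108 to -101 (in an overlapping window, the first of the same matches) and Ly6c1 did not, having TATAAA at -143 to -138 instead. Both strands were searched, also for TGANTCA (AP-1, 6.75% of windows), TTGCNNAA (C/EBP, 9.56%), an IRF motif (2.98%) and an NF-kB motif (7.25%), and no match overlapped another in the windows shown. The Ccr2 window held none of the 6, which says only that these letters are not in it. A match is a description of the sequence and not a binding site.

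A library held between 60984830 and 74691396 counts, and the 10 most abundant genes took 5.56% to 16.1% of them. Levels of one gene across libraries are in CPM (counts scaled to library size after TMM normalization), and levels of different genes are compared in the authors' FPKM, which is also per length. The labels do not say that each library is a separate mouse, so p-values measure the spread between these samples. DMM vehicle libraries carry numbers from 2 series, 32 to 34 and 63 to 64, of which the second follows the numbers 58 to 62 of the DMM AP20187 libraries. What a number marks is not stated in the labels. On the second principal component (9.22% of variance) the 4 naive AP20187 libraries stood apart at -90.5 to -65.0, against -25.8 to 51.8 for the other 15. Sensory neuron markers, which check the tissue, summed to 4592 to 11470 CPM in vehicle libraries and 1578 to 7359 CPM in AP20187 libraries.

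Against vehicle, AP20187 changed 7 of the 9 genes in naive mice, 6 higher and 1 lower. Of all genes tested in that comparison 11.2% were called, 8.61% higher and 2.57% lower. A gene was called at an adjusted p under 0.05 in edgeR's quasi-likelihood test with Benjamini-Hochberg adjustment over all 22778 genes. In DMM mice 4 of the 9 were called, 3 higher and 1 lower, against 23.8% of all genes (11.3% higher and 12.4% lower). These counts moved when 1 library of the compared groups was left out. In naive mice 4 to 6 of the 9 were then called, beside 994 to 3452 of all genes. In DMM mice it was 3 to 5 of the 9, beside 3212 to 7677 of all genes. The median log2 fold change over the 9 was 2.51 in naive and 1.18 in DMM mice, beside -0.07 and -0.10 over all genes. In naive mice 5 genes had every AP20187 library above every vehicle library (Ccl2, Ccl8, Ccl12, Ly6c2 and Plac8), as did 9.39% of all genes, and in DMM mice 2 did (Ccl8 and Plac8), against 8.71%.

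**Figure D1:**
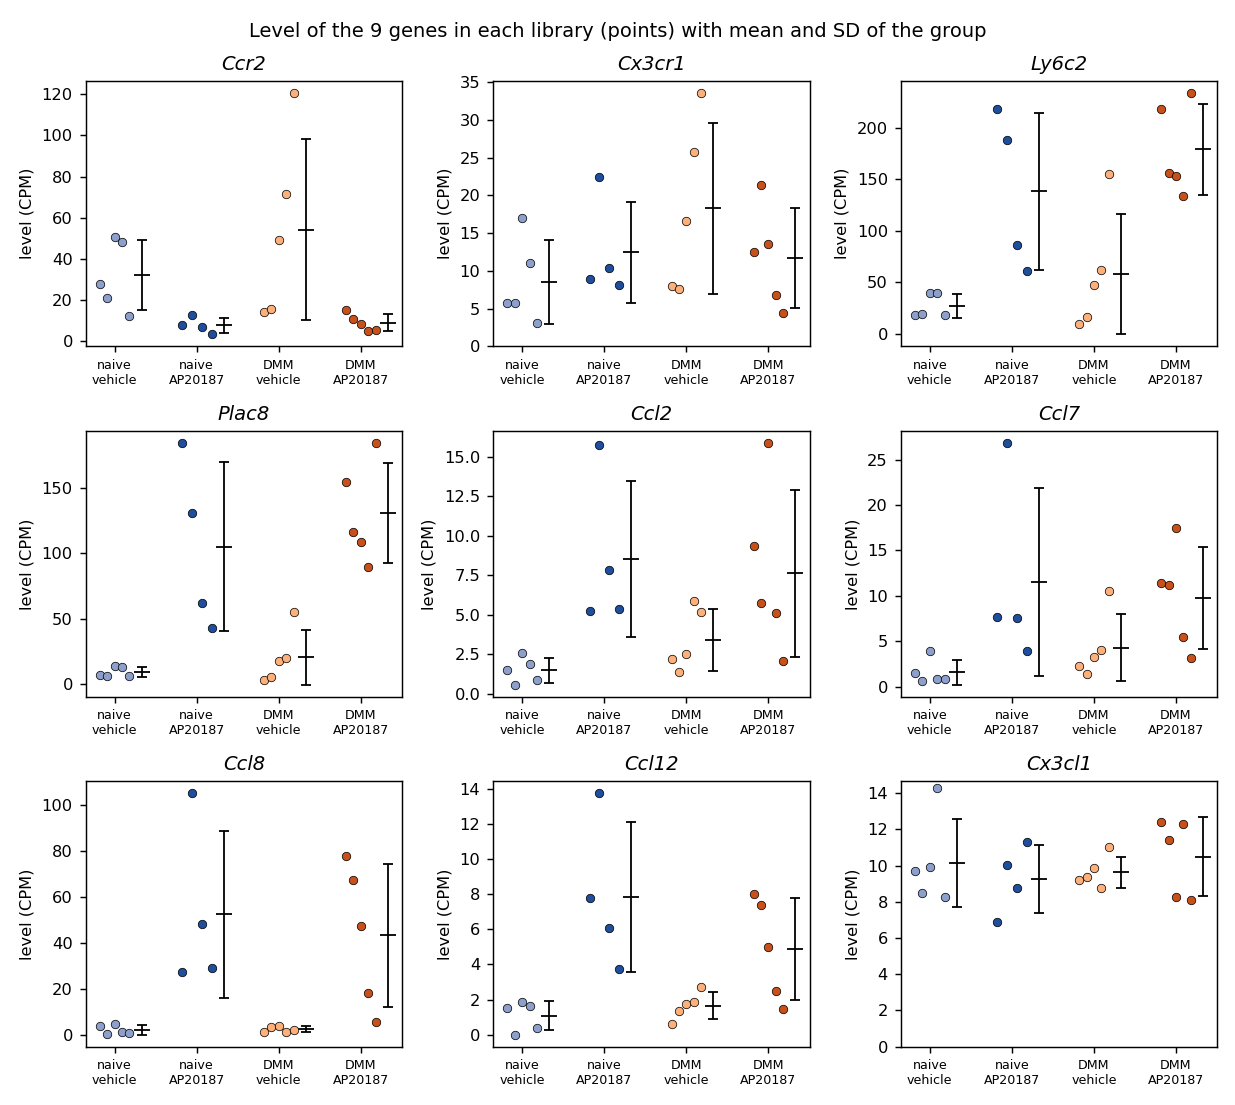
Level in CPM (vertical axes, linear) of each of the 9 genes in every library (points), by group, with bars for the group mean and SD; each panel has its own scale. Ccr2 lies low in both AP20187 groups, at 3.40 to 15.2 CPM, while Ly6c2, Plac8 and Ccl8 lie high there, and Cx3cl1 stays between 6.90 and 14.3 CPM throughout.

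Ccr2, the receptor that draws classical monocytes out of the marrow, stood at 28.1, 21.0, 50.7, 48.4 and 12.4 CPM in naive vehicle libraries 1 to 5. With AP20187 naive libraries 1, 3, 4 and 5 gave 8.01, 12.6, 6.91 and 3.40 CPM. All but one of these lay below every naive vehicle library, AP20187 library 3 being just above vehicle library 5. In DMM vehicle libraries 32, 33, 34, 63 and 64 the level was 14.4, 15.8, 49.1, 71.3 and 120.5 CPM, and in DMM AP20187 libraries 58 to 62 it was 15.2, 10.7, 8.52, 4.84 and 5.78 CPM. The vehicle group therefore spread widely, with 32 and 33 close to the highest AP20187 library. Ccr2 fell by 2.05 on the log2 scale in naive mice (SE 0.599, adjusted p = 0.0342) and by 2.59 in DMM mice (SE 0.562, adjusted p = 0.00426). The group means ran, from high to low, DMM vehicle 54.2 ± 44.1 (SD, n = 5), naive vehicle 32.1 ± 16.9 (n = 5), DMM AP20187 8.998 ± 4.16 (n = 5) and naive AP20187 7.74 ± 3.81 CPM (n = 4). Neither the first and the second nor the last pair in that order differed beyond their spread (log2 difference of DMM from naive 0.76, 95% interval -0.36 to 1.87, with vehicle and 0.22, interval -0.97 to 1.41, with AP20187). In naive mice the call ended when AP20187 library 1, 4 or 5 or vehicle library 1, 2, 3 or 4 was left out (log2 fold changes -2.17 to -1.78, adjusted p 0.05 to 0.0881).

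Cx3cr1, the fractalkine receptor of patrolling monocytes and tissue macrophages, passed the test in neither comparison. It stood at 5.79, 5.69, 17.0, 11 and 3.15 CPM in naive vehicle libraries 1 to 5 and at 8.89, 22.4, 10.4 and 8.17 CPM in naive AP20187 libraries 1, 3, 4 and 5. In DMM mice vehicle libraries 32, 33, 34, 63 and 64 gave 7.94, 7.57, 16.6, 25.8 and 33.6 CPM, and AP20187 libraries 58 to 62 gave 12.5, 21.3, 13.6, 6.82 and 4.40 CPM. The groups overlapped in both comparisons. The log2 difference was 0.55 in naive mice (95% interval -0.57 to 1.67, adjusted p = 0.507) and -0.64 in DMM mice (interval -1.71 to 0.42, adjusted p = 0.389). The ratio of Cx3cr1 to Ccr2 in FPKM was 0.309 to 0.502 in naive vehicle and 0.418 to 0.83 in DMM vehicle libraries, and 1.67 to 3.62 and 1.15 to 3.01 in naive and DMM AP20187 libraries.

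Ly6c2, the classical monocyte surface marker, was at 18.1, 19, 40.01, 39.77 and 17.8 CPM in naive vehicle libraries 1 to 5 and at 218, 188, 86.3 and 61.0 CPM in naive AP20187 libraries 1, 3, 4 and 5. The naive groups did not overlap, the lowest AP20187 library (5) standing above the highest vehicle library (3). DMM vehicle libraries 32, 33, 34, 63 and 64 gave 9.11, 16.2, 47.1, 62.3 and 155 CPM, against 219, 156, 154, 134 and 234 CPM in DMM AP20187 libraries 58 to 62. Here vehicle library 64 reached into the AP20187 range. Ly6c2 rose by 2.36 on the log2 scale in naive mice (SE 0.596, adjusted p = 0.0175) and by 1.63 in DMM mice (SE 0.563, adjusted p = 0.0432). The DMM call was lost without AP20187 library 58, 59, 60 or 62 or vehicle library 32, 33, 34 or 63 (log2 fold changes 1.35 to 1.68, adjusted p 0.0616 to 0.0979), and without vehicle library 64 the value was 2.41. The naive call was lost without AP20187 library 1 or 3 or vehicle library 1 or 2 (2.05 to 2.26, adjusted p 0.0501 to 0.0648).

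Ly6c1, a paralog that endothelium expresses, lies near Ly6c2 on chromosome 15, and 32.6% of the 50-base stretches of the Ly6c2 transcript also occur in Ly6c1 (15.8% at 100 bases), so part of their counts could be split between them. Ly6c1 stood at 12.8 to 25.1 CPM in naive vehicle and 14.5 to 30.1 CPM in DMM vehicle libraries, and at 49.3 to 62.0 and 37.0 to 66.4 CPM with AP20187. Its log2 fold changes were 1.66 (adjusted p = 0.000738) and 1.31 (adjusted p = 0.00139). With the counts of both genes summed, the rise was 2.12 in naive (adjusted p = 0.0074) and 1.56 in DMM mice (adjusted p = 0.0173). Ly6g, the neutrophil surface gene on the other side of Ly6c2, differed by 0.57 and -0.20 with adjusted p of 0.553 and 0.847.

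Plac8, abundant in immature myeloid cells, followed Ly6c2 with a larger difference. Naive vehicle libraries 1 to 5 gave 7.16, 6.20, 13.9, 12.99 and 6.68 CPM and naive AP20187 libraries 1, 3, 4 and 5 gave 184, 131, 62.3 and 43.3 CPM. DMM vehicle libraries 32, 33, 34, 63 and 64 stood at 3.67, 5.45, 18.1, 20.4 and 55.0 CPM and DMM AP20187 libraries 58 to 62 at 155, 117, 109, 89.8 and 184 CPM. The groups did not overlap in either comparison, although vehicle library 64 was again the highest of its group. Plac8 rose by 3.48 on the log2 scale in naive (SE 0.618, adjusted p = 0.00229) and by 2.67 in DMM mice (SE 0.583, adjusted p = 0.00441; 3.46 without vehicle library 64).

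Within the vehicle groups Ccr2, Ly6c2 and Plac8 were high and low in the same libraries, and with AP20187 their ratios were different. The ratio of Ly6c2 to Ccr2 in FPKM ran from 1.59 to 3.55 in naive vehicle and from 1.56 to 3.18 in DMM vehicle libraries, even though the level of Ly6c2 went from 9.11 CPM in DMM vehicle 32 to 155 CPM in DMM vehicle 64. With AP20187 it ran from 31.0 to 67.4 in naive and from 35.6 to 100 in DMM libraries. The ratio of Plac8 to Ccr2 was 1.08 to 2.29 in all 10 vehicle libraries and 38.4 to 136 in all 9 AP20187 libraries. Plac8 to Ly6c2, the pair that moved the same way, had a ratio of 0.56 to 0.693 with vehicle and 1.15 to 1.45 with AP20187. These ratios were chosen after their values were seen and carry no test.

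**Figure D2:**
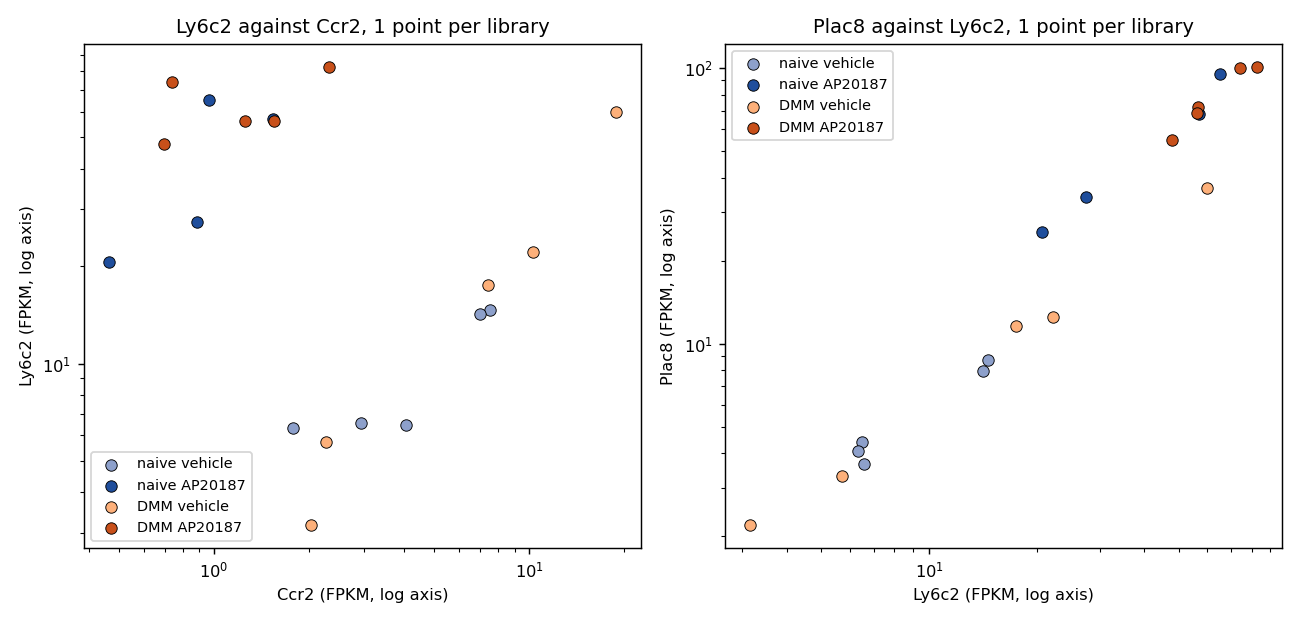
Left, Ly6c2 against Ccr2, and right, Plac8 against Ly6c2, in FPKM on log axes, with 1 point per library coloured by group. In the left panel the 10 vehicle libraries lie along one band with Ly6c2 at 1.56 to 3.55 times Ccr2, and the 9 AP20187 libraries lie at low Ccr2 and high Ly6c2, at 31.0 times or more.

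Ccl8 had the largest difference of the 5 chemokines among the 9 genes. It was at 3.87, 0.358, 4.87, 1.18 and 0.775 CPM in naive vehicle libraries 1 to 5 and at 27.6, 105, 48.5 and 29.3 CPM in naive AP20187 libraries 1, 3, 4 and 5. DMM vehicle libraries 32, 33, 34, 63 and 64 gave 1.56, 3.57, 4.04, 1.36 and 2.18 CPM, and DMM AP20187 libraries 58 to 62 gave 78.2, 67.6, 47.5, 18.2 and 5.84 CPM. No AP20187 library fell within the vehicle range, although DMM AP20187 library 62 was close to it. Ccl8 rose by 4.57 on the log2 scale in naive (SE 0.782, adjusted p = 0.00176) and by 4.10 in DMM mice (SE 0.751, adjusted p = 0.00146). It kept its call in all leave-one-out fits of both comparisons, at 4.01 to 5.09 and 3.78 to 4.38.

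Ccl2, the main monocyte attractant, was at 1.54, 0.591, 2.56, 1.92 and 0.909 CPM in naive vehicle libraries 1 to 5 and at 5.28, 15.7, 7.83 and 5.38 CPM in naive AP20187 libraries 1, 3, 4 and 5. In DMM mice vehicle libraries 32, 33, 34, 63 and 64 gave 2.21, 1.39, 2.54, 5.88 and 5.15 CPM and AP20187 libraries 58 to 62 gave 9.34, 5.78, 15.9, 5.09 and 2.06 CPM. The naive groups were apart and the DMM groups overlapped, with vehicle 63 and 64 at the level of AP20187 59 and 61. Ccl2 rose by 2.51 in naive mice (SE 0.562, adjusted p = 0.0089), and in DMM mice its log2 fold change was 1.15 (SE 0.521, adjusted p = 0.114).

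Ccl7, which also attracts monocytes through CCR2, showed 1.53, 0.684, 3.91, 0.904 and 0.882 CPM in naive vehicle libraries 1 to 5 and 7.71, 26.8, 7.56 and 3.91 CPM in naive AP20187 libraries 1, 3, 4 and 5. DMM vehicle libraries 32, 33, 34, 63 and 64 gave 2.25, 1.36, 3.31, 3.99 and 10.6 CPM, and DMM AP20187 libraries 58 to 62 gave 11.5, 11.1, 17.5, 5.45 and 3.16 CPM. Naive AP20187 library 3 stood far above the other three, and vehicle library 3 was level with AP20187 library 5. Ccl7 rose by 2.86 in naive mice (SE 0.687, adjusted p = 0.0132), a call that was lost without AP20187 library 3 (2.02, adjusted p = 0.0861), and the value was 3.52 without vehicle library 3. In DMM mice its log2 fold change was 1.18 (SE 0.629, adjusted p = 0.183), which among the fits with 1 library left out passed without vehicle library 64 alone (1.84, adjusted p = 0.0318).

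Ccl12 encodes a further mouse ligand of CCR2, also named MCP-5. Naive vehicle libraries 1 to 5 gave 1.53, 0, 1.85, 1.63 and 0.361 CPM, where the 0 of library 2 allows up to 0.0466 CPM (3 counts), and naive AP20187 libraries 1, 3, 4 and 5 gave 7.77, 13.7, 6.05 and 3.73 CPM. DMM vehicle libraries 32, 33, 34, 63 and 64 were at 0.632, 1.34, 1.74, 1.87 and 2.71 CPM and DMM AP20187 libraries 58 to 62 at 8.02, 7.39, 4.99, 2.50 and 1.48 CPM. In DMM mice the overlap came from AP20187 libraries 61 and 62, the lowest of their group for all of Ccl7, Ccl8 and Ccl12. Ccl12 rose by 2.86 in naive mice (SE 0.782, adjusted p = 0.0253), and the log2 fold change in DMM mice was 1.55 (SE 0.725, adjusted p = 0.126). Without naive AP20187 library 1 or 3 or naive vehicle library 5 the naive value was 2.86, 2.46 or 2.69, and none of the 3 passed (adjusted p 0.0572 to 0.0955).

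Whether the DMM differences of Ccl2, Ccl7 and Ccl12 passed varied with the test. DESeq2 called none of the 3 (1.19, 1.22 and 1.59, with adjusted p of 0.0614, 0.116 and 0.0698), nor did limma on log2(FPKM + 1), with adjusted p of 0.148, 0.137 and 0.0801. With limma's voom and sample weights all 3 were called, at 1.79, 2.08 and 1.87 (adjusted p of 0.00443, 0.00143 and 0.0379), in a fit that called 7 of the 9 genes and 46.9% of all genes. In edgeR's fit of the DMM groups alone Ccl12 was 1.63 (adjusted p = 0.0476). Naive AP20187 library 3 had the highest level of each of the 4 ligands in its group, and DMM AP20187 library 62 the lowest in its own, although library 62 had the most Ly6c2 and Plac8 of its group (234 and 184 CPM). Cx3cr1 was likewise highest of the naive AP20187 group in library 3 and lowest of the DMM AP20187 group in library 62. The summed fibroblast and resident macrophage lists were also highest and lowest in these libraries of their groups. In DMM AP20187 libraries 58 to 62 the fibroblast sum was 6009, 5889, 4824, 2109 and 1602 CPM and the resident macrophage sum 1154, 1006, 846.4, 407.3 and 389.1 CPM, and in naive AP20187 library 3 they were 5522 and 921.1 CPM, against 2803 to 2892 and 584.9 to 632.3 CPM in the other naive AP20187 libraries. Their part in the ligand levels was not tested. In DMM vehicle libraries the order differed between ligands, library 63 having the most Ccl2 and the least Ccl8 of the group. The ratio of Ccl8 to Ccl2 in FPKM was 1.34 to 5.61 in naive vehicle and 0.514 to 5.78 in DMM vehicle libraries, and 11.7 to 14.9 and 6.39 to 26.1 with AP20187. Ccl7 to Ccl2 ran from 0.659 to 2.92 with vehicle and from 1.03 to 2.74 with AP20187, so this ratio overlapped between treatments. Ccl11, which lies between Ccl7 and Ccl12 and encodes the eosinophil attractant eotaxin, had log2 fold changes of 1.64 in naive (adjusted p = 0.101) and 0.29 in DMM mice (adjusted p = 0.776).

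Cx3cl1, the fractalkine ligand, was the steadiest of the 9. It was at 9.71, 8.46, 9.92, 14.3 and 8.26 CPM in naive vehicle libraries 1 to 5 and at 6.90, 10.1, 8.74 and 11.3 CPM in naive AP20187 libraries 1, 3, 4 and 5. DMM vehicle libraries 32, 33, 34, 63 and 64 gave 9.18, 9.34, 9.85, 8.78 and 11 CPM and DMM AP20187 libraries 58 to 62 gave 12.4, 11.4, 8.26, 12.3 and 8.09 CPM. All 4 groups overlapped. The log2 difference with AP20187 was -0.13 in naive mice (95% interval -0.55 to 0.29, adjusted p = 0.686) and 0.12 in DMM mice (interval -0.27 to 0.52, adjusted p = 0.682).

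Per length, the order of the 9 genes was different with AP20187. In naive vehicle libraries the mean FPKM was highest for Ly6c2 (9.64 ± 4.37, SD, n = 5), then Plac8 (5.78 ± 2.39), Ccr2 (4.67 ± 2.51) and Ccl8 (4.27 ± 3.97), neighbours whose spreads overlap, and Cx3cl1, Ccl12, Ccl7, Cx3cr1 and Ccl2 lay between 1.29 and 2.52. In naive AP20187 libraries Ccl8 led (87.6 ± 57.5, n = 4), followed by Plac8 (55.5 ± 31.9) and Ly6c2 (42.5 ± 21.8), again with overlapping spreads, while Ccr2 was last at 0.965 ± 0.443. In DMM AP20187 libraries Ccl8 (85.4 ± 62.7, n = 5), Plac8 (79.4 ± 20.3) and Ly6c2 (63.4 ± 14.4) also stood highest and Ccr2 lowest, at 1.31 ± 0.67. In DMM vehicle libraries Ly6c2 (21.7 ± 22.8, n = 5), Plac8 (13.2 ± 13.9) and Ccr2 (8.18 ± 6.93) led, with SDs as large as or close to their means.

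**Figure D3:**
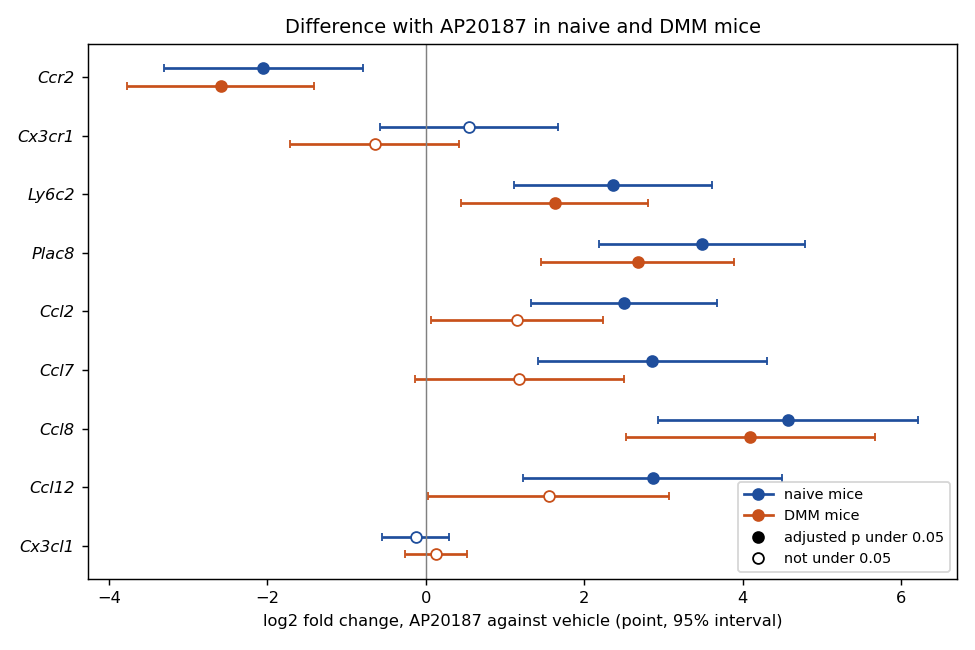
Log2 fold change of AP20187 against vehicle (horizontal axis) for each of the 9 genes in naive (blue) and DMM mice (orange), as the fitted value with its 95% interval; filled points have an adjusted p under 0.05. Ccr2 lies left of 0 in both, Ccl8, Plac8 and Ly6c2 right of 0 in both, and Ccl2, Ccl7 and Ccl12 are filled in naive mice only, a difference that the interaction test did not call.

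The difference between the AP20187 effects in DMM and in naive mice was tested as an interaction, and none of the 9 genes passed, against 0.114% of all genes. None of the 9 had an unadjusted p under 0.05 in it (7.67% of all genes did), and none was called by DESeq2 or by limma's voom. The largest estimates were for Ccl7 (-1.68, 95% interval -3.58 to 0.23, adjusted p = 0.72), Ccl2 (-1.36, interval -2.93 to 0.22, adjusted p = 0.735) and Ccl12 (-1.31, interval -3.48 to 0.86, adjusted p = 0.876). For Ccr2 it was -0.54 (interval -2.16 to 1.08) and for Ccl8 -0.48 (interval -2.51 to 1.56). The intervals are wide, each holding both 0 and -2 on the log2 scale for Ccr2, Ccl2, Ccl7, Ccl8 and Ccl12. The naive and the DMM effects of AP20187 rest on separate libraries.

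Surgery itself was compared at equal treatment, with libraries that the AP20187 comparisons share. With vehicle, none of the 9 genes was called in DMM against naive mice, and 0% of all genes were. Unadjusted, 3 of the 9 and 1.66% of all genes had p under 0.05 in edgeR's test, and neither DESeq2 nor voom called any of the 9. Those 3 were Ccl7 (log2 1.44, 95% interval 0.10 to 2.78), Ccl2 (1.19, interval 0.09 to 2.29) and Cx3cr1 (1.10, interval 0.03 to 2.18). The values for Plac8 and Ly6c2 were 1.13 (interval -0.04 to 2.29) and 1.11 (interval -0.06 to 2.27), and for Ccl8 0.20 (interval -1.22 to 1.62). With AP20187, 0 of 9 were called against 0.702% of all genes, none had an unadjusted p under 0.05 or was called by DESeq2 or voom, and the log2 differences ran from -0.68 for Ccl12 to 0.37 for Ly6c2.

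Which DMM vehicle libraries served as the control changed several of these values. Against libraries 63 and 64 alone, where 4.73% of all genes were called, the AP20187 difference in DMM mice was -3.39 for Ccr2 (adjusted p = 0.00522) and 4.66 for Ccl8 (adjusted p = 0.0394), and was 0.72 for Ly6c2 (adjusted p = 0.48) and 1.78 for Plac8 (adjusted p = 0.0795). Against libraries 32 to 34 alone 6 of the 9 were called, beside 36.3% of all genes: Ccr2 fell by 1.56 (adjusted p = 0.0247), Ly6c2 rose by 2.89 (adjusted p = 0.0014), Plac8 by 3.85 (adjusted p = 0.000369), Ccl8 by 3.83 (adjusted p = 0.0057), Ccl2 by 1.90 (adjusted p = 0.0213) and Ccl7 by 2.08 (adjusted p = 0.032). Ccr2 and Ccl8 were thus called against either part of the vehicle group. Libraries 63 and 64 also stood above naive vehicle in Ly6c2 (2.07) and Plac8 (2.06, both adjusted p = 0.0485; 2.21% of all genes called), while libraries 32 to 34 differed from naive vehicle by -0.16 and -0.05 (both adjusted p = 1).

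**Figure D4:**
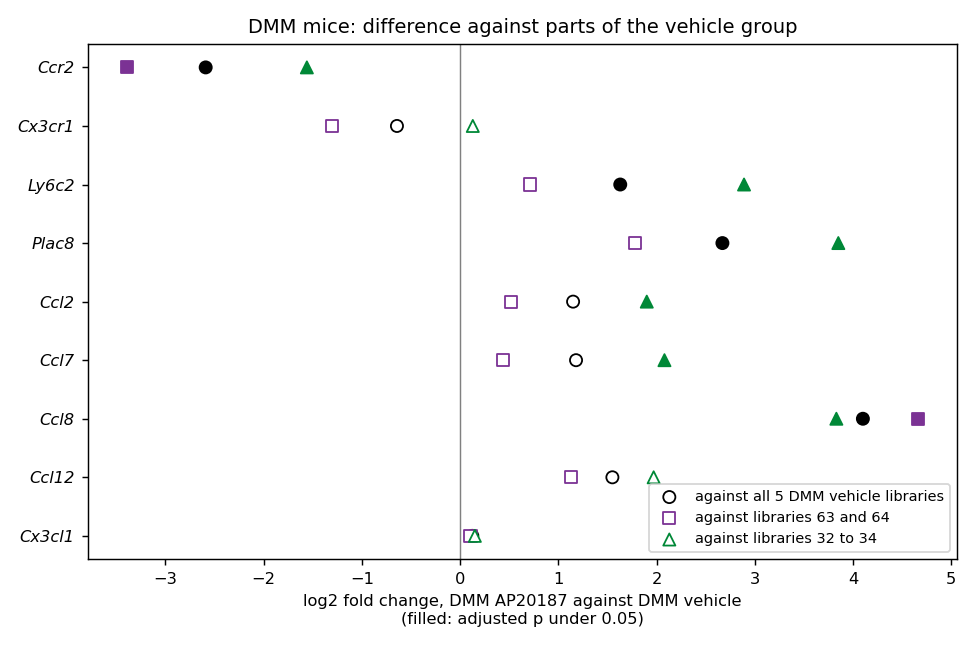
Log2 fold change of DMM AP20187 against all 5 DMM vehicle libraries (circles), against libraries 63 and 64 (squares) and against libraries 32 to 34 (triangles) for the 9 genes; filled symbols have an adjusted p under 0.05. Ccr2 and Ccl8 are filled for each choice of control, Ly6c2 and Plac8 are open against 63 and 64, and Ccl2 and Ccl7 are filled only against 32 to 34.

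Beside the members, 18 of 19 receptors and signalling partners of the CC chemokines were tested. With AP20187 7 rose and none fell in naive mice, and 7 rose and 1 fell in DMM mice, with median log2 fold changes of 0.38 and 0.32. Over all genes tested, 8.61% were called higher and 2.57% lower in naive mice, and 11.3% higher and 12.4% lower in DMM mice. The counts of this list and of the lists below are to be read beside these shares. The 1 of 18 that fell in DMM mice is no more than the share there. Ccr1, a receptor of inflammatory chemokines on myeloid cells, was at 7.15 to 17.6 CPM in naive vehicle and 62.3 to 169 CPM in naive AP20187 libraries and rose 9.29-fold (adjusted p = 0.0033), and in DMM mice 9-fold (adjusted p = 0.00169). Arrb2, an arrestin that ends receptor signalling, rose by 1.90 and 1.86 on the log2 scale (adjusted p = 0.00239 and 0.00111), and Rac2, a GTPase of leukocyte migration, by 2.88 and 2.52 (adjusted p = 0.00674 and 0.00637). Ccr8, the other receptor assigned to CCL8, did not pass the filter on low counts, with 0.1766 CPM in its highest library. The gene of the list that fell in DMM mice was Cnih4, a cargo receptor (by 0.36, adjusted p = 0.0278).

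Of 11 other CC ligands, 2 rose in naive mice and 1 fell in DMM mice, with medians of 1.64 and -0.89 on the log2 scale. In naive mice 8.61% of all genes were called higher. The 1 of 11 in DMM mice is no more than the 12.4% of all genes called lower there. Ccl3, a ligand of CCR1, was at 0 to 0.227 CPM in naive vehicle and 0.706 to 3.84 CPM in naive AP20187 libraries (adjusted p = 0.0248), and in DMM mice its log2 fold change was -1.48 (adjusted p = 0.305). Ccl9, another CCR1 ligand, rose by 1.90 in naive mice (adjusted p = 0.0301), with 1.04 in DMM mice (adjusted p = 0.142). Ccl24, the eosinophil attractant eotaxin-2, had 0 counts in all 5 DMM AP20187 libraries, where 3 counts are 0.0439 to 0.051 CPM, and stood at 0.224 to 2.58 CPM in DMM vehicle libraries (adjusted p = 0.00118).

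Of 15 genes known to induce CC ligands or to act in that response, 6 rose in naive and 9 in DMM mice and none fell, with median log2 fold changes of 1.05 and 1.01. Tnf, a cytokine that induces Ccl2, was at 0.249 to 0.913 CPM in naive vehicle and 4.59 to 9.68 CPM in naive AP20187 libraries and rose 12.7-fold (adjusted p = 0.000906), and 9.77-fold in DMM mice (adjusted p = 0.000753). Tlr4, the endotoxin receptor, rose by 1.42 and 2.08 on the log2 scale (adjusted p = 0.00523 and 0.000158), and its adaptor Myd88 by 1.99 and 2.35 (adjusted p = 0.00269 and 0.000359). Fos, a subunit of AP-1, rose by 1.70 in DMM mice (adjusted p = 0.0143), with 1.42 in naive mice (adjusted p = 0.061). Il1b and Il6, which are also on the list, were called in neither comparison.

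Several marker lists of cell types that the ganglia could hold also changed with AP20187, and their part in the results on the 9 genes was not tested. The 12 granulocyte precursor and neutrophil markers summed to 827 to 2222 CPM in naive vehicle and 404 to 7761 CPM in DMM vehicle libraries, and to 8028 to 27450 and 16870 to 29180 CPM with AP20187. In naive mice 11 of them rose and in DMM mice 10, with median log2 fold changes of 3.75 and 3.21, and none was at 0 throughout a group. Ctsg, a protease of primary granules, rose by 4.50 and 4.15 (adjusted p = 0.00104 and 0.000727), S100a8 by 4.58 and 3.02 (adjusted p = 0.00123 and 0.00511), S100a9 by 4.34 and 2.95 (adjusted p = 0.00126 and 0.00466) and Lcn2 by 4.43 and 3.59 (adjusted p = 0.00071 and 0.00107). In the DMM vehicle group the lowest and highest sums were those of libraries 32 and 64, as for Ccr2, Ly6c2 and Plac8 and for the lymphoid (7.62 and 112 CPM) and erythroid sums (1565 and 26310 CPM).

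**Figure D5:**
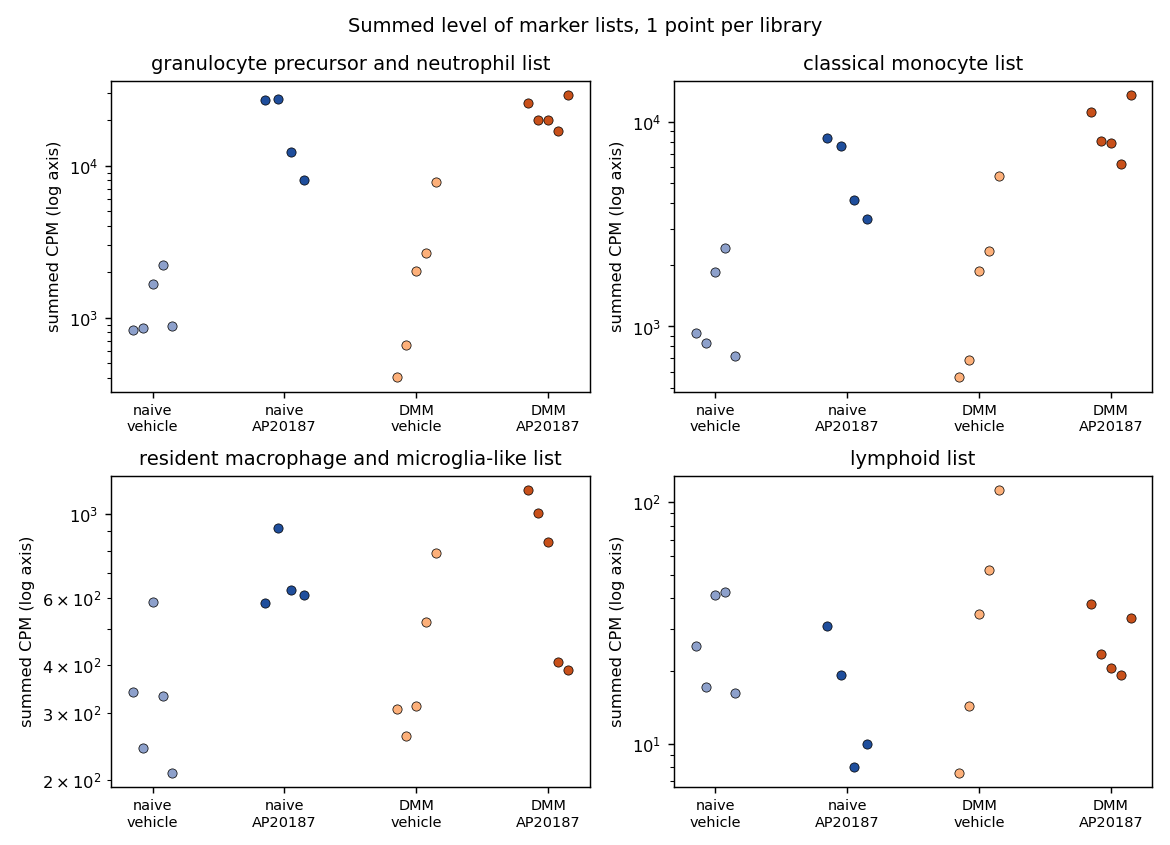
Summed CPM (log axes) of 4 marker lists, 1 point per library, by group. The granulocyte list is 8028 CPM or more in every AP20187 library and at most 7761 CPM in every vehicle library, the classical monocyte list separates the treatments within naive and within DMM mice, and the resident macrophage and lymphoid lists overlap between treatments.

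Of 16 further classical monocyte genes, 6 rose and none fell in naive mice, and 7 rose and 1 fell in DMM mice. Their summed level was 718.5 to 2413 CPM in naive vehicle against 3350 to 8313 CPM in naive AP20187 libraries, and 564 to 5452 against 6191 to 13500 CPM in DMM libraries. Among those that rose in both were Chil3, a chitinase-like lectin (3.75 and 3.91, adjusted p = 0.00205 and 0.000717), and Hp, haptoglobin (3.44 and 3.17, adjusted p = 0.00272 and 0.00193), both of which neutrophil precursors also express. The lectin Clec4e rose by 3.24 and 2.98 (adjusted p = 0.00176 and 0.00121) and the coagulation factor F10 by 3.23 and 3.30 (adjusted p = 0.00178 and 0.000646). Ms4a4c fell in DMM mice by 2.30 (adjusted p = 0.00838), from 1.84 to 19.2 CPM with vehicle to 0.763 to 3.43 CPM with AP20187. Vcan, Fn1 and Irf8 were called in neither comparison.

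Of 12 patrolling monocyte genes, 3 rose in naive mice, beside 8.61% of all genes called higher there. In DMM mice 3 rose and 2 fell, beside 11.3% of all genes higher and 12.4% lower. Pglyrp1, a peptidoglycan-binding protein that granulocytes also store, rose by 3.92 and 3.12 (adjusted p = 0.00238 and 0.00369), and Spn (CD43) by 1.91 in DMM mice (adjusted p = 0.0212; 1.77 in naive mice, adjusted p = 0.0541). Eno3, an enolase, rose by 2.93 in naive mice (adjusted p = 0.0089) and fell by 1.98 in DMM mice (adjusted p = 0.0286), and its interaction was called (-4.91, adjusted p = 0.0351). The DMM groups overlapped in Eno3, at 5.55 to 109.7 CPM (median 11.9) with vehicle and 4.88 to 12.5 CPM with AP20187. The wide spread of the vehicle group bears on both the DMM difference and the interaction. Ear2, a ribonuclease of patrolling monocytes, rose by 1.89 in naive mice (adjusted p = 0.0378), with 0.52 in DMM mice (adjusted p = 0.516). Adgre4 fell in DMM mice by 1.86 (adjusted p = 0.0237).

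Resident macrophage and microglia-like genes, the compartment that CX3CR1 also marks, held no gene called as lower. Of 14, 3 rose in naive mice (Cd68, C1qb and Aif1), beside 8.61% of all genes called higher there. In DMM mice 1 rose (Mrc1), no more than the 11.3% of all genes called higher there. Cd68, a lysosomal glycoprotein, rose by 1.98 in naive mice (adjusted p = 0.0139), and Mrc1, the mannose receptor, by 1.45 in DMM mice (adjusted p = 0.023). Csf1r, whose promoter drives the transgene, stood at 19.2 to 98.2 CPM in naive vehicle, 57.8 to 86.8 in naive AP20187, 32.7 to 146.6 in DMM vehicle and 30.6 to 103.9 CPM in DMM AP20187 libraries, with log2 fold changes of 0.45 (adjusted p = 0.554) and -0.02 (adjusted p = 0.982). The expression of the transgene was not analysed here.

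B-cell genes fell in the same comparisons as Ccr2. Of 7 lymphoid markers 3 fell and 1 rose in each comparison. Cd79a fell by 2.93 in naive and 3.87 in DMM mice (adjusted p = 0.0113 and 0.000798) and Cd79b by 2.55 and 2.57 (adjusted p = 0.0191 and 0.0064), while Nkg7, a cytotoxic granule gene, rose by 2.81 and 2.83 (adjusted p = 0.0245 and 0.0118). Of 7 dendritic cell genes only Flt3, the receptor of early dendritic and lymphoid progenitors, passed, falling by 1.38 in DMM mice (adjusted p = 0.0254), a share near the 12.4% of all genes, and none passed in naive mice. Of 6 erythroid genes the globin genes Hbb-bs, Hbb-bt, Hba-a1 and Hba-a2, near-identical copies whose counts can be split between them, fell in DMM mice by 1.75 to 2.08 (adjusted p 0.0269 to 0.0438), and none passed in naive mice. Endothelial genes rose in 2 of 6 cases in naive and 3 of 6 in DMM mice, beside 8.61% and 11.3% of all genes. Among them were Tek (1.29 and 1.12, adjusted p = 0.0423 and 0.0393) and Pecam1 in DMM mice (1.36, adjusted p = 0.0316). Ly6c1, whose counts could be split with Ly6c2, is on this list and is counted among those called in both comparisons. Of 10 sensory neuron genes 6 fell in DMM mice, including Trpv1 (-1.70, adjusted p = 0.0181), Rbfox3 (-1.52, adjusted p = 0.0323) and Nefl (-1.49, adjusted p = 0.0346), and none passed in naive mice. Of 8 genes of satellite glia and Schwann cells 2 fell in DMM mice, among them Sox10 by 0.77 (adjusted p = 0.0117), beside 12.4% of all genes called lower there. None of these 8 passed in naive mice, and of 5 fibroblast genes none was called in either comparison.

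The genes whose log2 CPM followed each member most closely over the 19 libraries, among 14480 genes with a mean of at least 1 CPM, were different for Ccr2 and for the other monocyte genes. These correlations describe libraries that share treatment, depth and cell content, and carry no p. Closest to Ccr2 were the B-cell receptor gene Cd79b (Pearson r = 0.972), Tifab (0.964) and the integrin gene Itgb7 (0.953), and after removal of group means r was 0.937, 0.949 and 0.937. Cd79b lay at 4.62 to 16.1 CPM in naive vehicle, 1.09 to 2.07 in naive AP20187, 2.65 to 38.7 in DMM vehicle and 1.00 to 3.80 CPM in DMM AP20187 libraries. Ly6c2 was followed by Nfe2, a blood-cell transcription factor (0.996), Selplg, the selectin ligand PSGL-1 (0.995), and the formyl peptide receptor Fpr1 (0.993), and Plac8 by Arhgdib (0.997), Mcemp1 (0.997) and Pilra (0.996).

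Among the chemokines, Ccl2 and Ccl7 were each other's near neighbours (r = 0.941). Among the genes closest to Ccl8 were Lrch4 (0.928) and Cxcl13 (0.922), the B-cell attractant, which was at 0.0622 to 1.05 CPM in naive vehicle and 0.179 to 0.524 CPM in DMM vehicle libraries and at 23.3 to 56.8 and 10.1 to 59.6 CPM with AP20187. With group means removed r was 0.743 and 0.607. Ccl12 was closest to Rps13 (0.907), the interferon-induced GTPase gene Ifi47 (0.906) and the chemokine Cxcl16 (0.903). Cx3cr1 was closest to Cyp27a1 (0.907; 0.941 within groups), a sterol hydroxylase, and Cx3cl1 had no neighbour above 0.795, its closest being Proser2.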

How the data were processed

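The 9 genes and the gene lists were chosen with earlier results of these data known. Raw counts were deposited by the authors for 56691 entries (6448 of them without a gene name, left out here), and a table of counts and FPKM for 36682 named genes. All 9 genes had equal counts in both. The FPKM values (fragments scaled to length and library size, as deposited by the authors) served for levels between genes and as an alternative. The submitters' processing notes name cutadapt, HISAT2, StringTie and build GRCm39; their versions and roles are not given in the sources used here. Relative to counts, FPKM was 0.904 to 0.925 times as large in naive AP20187 libraries 1, 3 and 4 as in the other libraries (0.998 to 1.01).

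Counts of named genes were tested with edgeR 4.0.16 (R 4.3.3) over all 19 libraries, with TMM scaling, filterByExpr (minimum count 10), a quasi-likelihood F test with 15 residual degrees of freedom, 5 contrasts and Benjamini-Hochberg adjustment over 22778 genes, two-sided, at 0.05. Intervals are 95%. A floor of 3 counts covers counting error only. Alternatives used DESeq2 1.42.0, limma 3.58.1, no TMM, no filter, FPKM, other sets of libraries and each library left out. From each list the rule named up to 4 genes, those with the largest absolute log2 fold change among the genes called with AP20187, beside Ly6c1 and the genes next to members. Other named genes were chosen after their values were seen. Pattern neighbours are the 3 genes of highest Pearson r in log2 CPM (prior count 2). The scripts were tested on simulated data. Some genes of the lists, and of those named by these rules, are not reported here by name.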

Additional observations from a re-analysis of the deposited data

Results flagged for a closer look

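Chance flags about 1 set in 20 where values are normally distributed and sets are independent. The sets here share libraries, and CPM need not be normally distributed, so that rate may not hold. Of the 36 sets of 4 or 5 libraries tested for a single outlying library, 5 had one. Ccl7 accounted for 3 of them: naive vehicle library 3 at 3.907 CPM, where the nearest of its group was at 1.526 CPM, naive AP20187 library 3 at 26.79 CPM against 7.713 CPM, and DMM vehicle library 64 at 10.58 CPM against 3.989 CPM. Cx3cr1 was at 22.42 CPM in naive AP20187 library 3, where the nearest library was at 10.39 CPM. Cx3cl1 was at 14.28 CPM in naive vehicle library 4, against 9.92 CPM in the nearest library. The call of Ccl7 in naive mice was lost without naive AP20187 library 3, and no call of Cx3cr1 or Cx3cl1 was made with or without these libraries.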

How the results depend on the processing

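Ccr2 in DMM mice, Ccl8 and Plac8 in both and Ccl2 in naive mice kept their direction and call with every library left out in turn. With 1 library left out, 3 to 5 of the 9 genes were called in DMM mice and 4 to 6 in naive mice, and 0 in the other comparisons. Genes called over the whole table then numbered 3212 to 7677 for AP20187 in DMM mice, 994 to 3452 in naive mice, 0 for DMM against naive with vehicle, 43 to 269 with AP20187 and 12 to 57 for the interaction. Some values not called changed sign when 1 library was left out: DMM against naive with AP20187 for Ccr2 (-0.0541 to 0.579), Ccl2 (-0.62 to 0.328), Ccl7 (-0.558 to 0.636), Ccl8 (-0.598 to 0.334) and Cx3cr1 (-0.421 to 0.378), DMM against naive with vehicle for Ccl8 (-0.0736 to 0.719) and Cx3cl1 (-0.133 to 0.0836), the interaction for Ccl8 (-0.996 to 0.111) and Ly6c2 (-1.02 to 0.0523), and AP20187 in naive mice for Cx3cl1 (-0.237 to 0.0267).

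Without TMM, Ly6c2 in DMM mice was 1.55 (adjusted p = 0.0548) and Cx3cr1 in DMM against naive with AP20187 was 0.0211. Without the low-count filter Ly6c2 in DMM mice was 1.62 (adjusted p = 0.0676) and Ccr2 in naive mice -2.06 (adjusted p = 0.053), with 73 genes called in DMM against naive with AP20187 and 13 in the interaction. DESeq2 called 4356 genes for AP20187 in naive mice, 1109 for DMM against naive with AP20187 and 224 for the interaction. On log2(FPKM + 1) these were 3958, 1148 and 52, and on log2(FPKM + 0.1) the first and second were 4063 and 908. On these scales DMM against naive with AP20187 was 0.0733 and 0.0755 for Ccl7 and 0.0423 and 0.0169 for Cx3cr1, and the interaction 0.109 and 0.121 for Ly6c2 and 0.0623 and 0.0575 for Plac8. With voom and sample weights 7 of the 9 genes and 10676 genes in all were called in DMM mice, 4542 genes in naive mice, 1 for DMM against naive with vehicle, 2456 with AP20187 and 53 for the interaction. There Cx3cr1 in DMM mice was 0.0698, Cx3cl1 in DMM against naive was 0.0135 with vehicle, and with AP20187 Ccl2 was 0.203, Ccl7 0.578, Ccl8 0.00983 and Cx3cr1 0.347. The interaction was then 0.161 for Ccr2, 0.256 for Ly6c2 and 0.198 for Plac8. With only the compared groups in the fit, Ly6c2 in DMM mice was 1.68 (adjusted p = 0.0754) and Ccl12 in naive mice 2.91 (adjusted p = 0.0504).

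With DMM vehicle libraries 63 and 64 alone, 2 of the 9 genes and 1156 in all were called for AP20187 in DMM mice, 2 and 541 for DMM against naive with vehicle and 90 for the interaction. Ccl8 was then -0.276 in DMM against naive with vehicle and 0.018 in the interaction. With libraries 32 to 34 alone 8450 genes were called for AP20187 in DMM mice. Cx3cr1 was then 0.129, DMM against naive with vehicle was -0.28 for Ccr2, -0.16 for Ly6c2 and -0.0494 for Plac8, and the interaction was 0.498, 0.534 and 0.365 for these genes. The cause of these shifts was not tested.

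The naive libraries share numbers 1, 3, 4 and 5. The labels do not say that a number marks a pair, so the numbers were not taken as pairs. Same-numbered libraries deviated together with r of 0.0235, 0.301, -0.0822 and 0.183, and differently numbered ones with r of -0.241 to 0.199. With so few libraries these values do not settle whether the numbers mark pairs. With the replicate block, 7 of the 9 genes and 1962 in all were called in naive mice, and in the same 8 libraries without the number 7 and 1388 (an alternative chosen after seeing the data). The only count of 0 among the 9 genes was that of Ccl12 in naive vehicle library 2.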
